A study of Mus musculus with 10 samples.

Results

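The cytosolic ribosome is built from ribosomal RNAs and the products of the ribosomal protein genes, which are named Rpl for the large 60S subunit and Rps for the small 40S subunit. Here these genes were followed in mouse cerebellum and medulloblastoma, a tumour of the cerebellum. They were the genes whose symbol has the Rpl or Rps form with a number, together with Rplp0, Rplp1, Rplp2 and Rpsa. The S6 kinase genes and named pseudogenes were left out, and a mean level of at least 5 CPM (counts per 1000000) over all libraries was asked for. This gave 77 genes, 46 of the large and 31 of the small subunit, among the 39769 gene symbols of the deposited table. All 77 matching symbols passed, since the lowest mean was 161 CPM (Rps28), and all 77 were among the 15617 genes tested. Fau, which encodes a ubiquitin-like protein fused to a ribosomal protein, and Rack1, a scaffold on the small subunit, have symbols of another form and are given apart.

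The samples were 10 RNA-seq libraries. The 3 AKP libraries came from medulloblastoma of AtohI-Cre Kmt2dfl/+ Ptch+/- mice, with AKP 1 and AKP 2 at 2 months of age and AKP 3 at 4 months. The 3 NKP libraries came from medulloblastoma of Nestin-Cre Kmt2dfl/+ Ptch+/- mice, all at 4 months. The 4 Ptch libraries came from cerebellum of Ptch+/- mice without a Cre label, of which Ptch 3 and Ptch 4 were 2 months old and the other two 4 months old. All groups therefore share the heterozygous loss of Ptch1, a brake on Sonic hedgehog signalling, and AKP and NKP mice also carry 1 floxed copy of Kmt2d, a histone H3 lysine 4 methyltransferase gene. Atoh1 drives Cre in granule neuron precursors of the cerebellum, and Nestin drives it in neural stem and progenitor cells. Tumour-bearing cerebella were compared with Ptch cerebella in the stated design, so each library is a mixture of cells. Whether replicate libraries stand for separate mice is not stated.

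Cells keep the ribosomal proteins in nearly equal amounts, since each ribosome takes 1 copy of nearly all of them. Their mRNAs begin with a stretch of pyrimidines at the very start, the 5' terminal oligopyrimidine (TOP) motif, through which mTORC1 signalling and the binding protein LARP1 control their translation together. In SHH medulloblastoma and in granule neuron precursors, MYCN is a known driver of growth and of ribosome production, and free RPL5 and RPL11 bind MDM2 and stabilise p53 when ribosome assembly fails.

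Before the family is described, some facts on the libraries are needed. Totals ran from 12300430 counts (Ptch 1) to 19348991 (Ptch 3). Kmt2d stood at 34.3, 41.3 and 43.6 CPM in AKP 1 to 3, at 33.2, 46.9 and 58.0 in NKP 1 to 3, and at 68.4, 57.3, 56.3 and 52.6 in Ptch 1 to 4, so NKP 3 lay inside the Ptch range. Mki67, a marker of dividing cells, stood at 0.575, 49.1 and 38.8 CPM in AKP 1 to 3, at 0.654, 0.719 and 11.8 in NKP 1 to 3, and at 84.1, 80.4, 28.8 and 27.3 in Ptch 1 to 4. The libraries labelled medulloblastoma were thus not the ones highest in this marker, and AKP 1, NKP 1 and NKP 2 held almost none of it. The summed CPM of 10 mitosis genes was likewise highest in Ptch 1 and Ptch 2 and lowest in AKP 1, NKP 1 and NKP 2, at 6.41 to 221 in AKP, 5.64 to 47.2 in NKP and 103 to 345 in Ptch. Summed markers of granule neuron precursors ran from 739 to 826 CPM in AKP, from 765 to 813 in NKP and from 932 to 1018 in Ptch, and those of mature granule neurons from 2419 to 4263, from 3653 to 4293 and from 2940.2 to 3663 CPM in the same order of groups. In 4 libraries (AKP 3, NKP 3, Ptch 1 and Ptch 3) the labelled sex did not match the Y-linked genes. Only Y-linked genes were used for this count. NKP 2, labelled male, held Xist, an RNA of the inactive X chromosome, at 74.8 CPM beside Y-linked genes at 68.4 CPM. The other libraries with Y-linked RNA held Xist at 0.433 (AKP 2) to 15.0 CPM (AKP 1). By a chi-square test of the counts per degree of freedom, the 45 pairs of libraries differed by 3.29 to 65.0, so none agreed within sampling noise. The closest were Ptch 3 and Ptch 4 (3.29), AKP 1 and NKP 1 (3.47), Ptch 1 and Ptch 2 (3.47) and NKP 3 and Ptch 4 (3.82), of which the second and the last join different groups. Groups were kept as labelled, and AKP, NKP and Ptch stand below for the libraries with those labels. Whether libraries were exchanged between groups was not tested, and each fold change between groups rests on the labels.

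The letters at the transcription start are shown first, because the TOP motif is what the family is known to share. Of the 77 genes, 57 have a promoter in the RefSeq table for GRCm38.p6. The lines below give the 80 bases from 50 before to 30 after the annotated start, 5' to 3', for those genes past the test in AKP against Ptch that the table holds on the chromosomes printed here (Rpl38, Rpl26, Rps25, Rps21 and Rps7) and then for the 3 with the smallest fold change there (Rpl23, Rpl4 and Rplp0). Capitals mark the longest run of C or T, or the first where runs tie, as in Rps7.
Rpl38 (chr11:114668530-114668609, plus strand): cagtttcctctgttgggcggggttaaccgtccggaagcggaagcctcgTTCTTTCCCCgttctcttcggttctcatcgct
Rpl26 (chr11:68901516-68901595, plus strand): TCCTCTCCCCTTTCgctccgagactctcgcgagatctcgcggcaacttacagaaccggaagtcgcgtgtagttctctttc
Rps25 (chr9:44407664-44407743, plus strand): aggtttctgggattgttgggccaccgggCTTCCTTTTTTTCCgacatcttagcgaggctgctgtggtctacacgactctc
Rps21 (chr2:180257329-180257408, plus strand): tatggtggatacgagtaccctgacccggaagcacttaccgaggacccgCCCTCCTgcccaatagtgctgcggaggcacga
Rps7 (chr12:28635924-28636003, minus strand): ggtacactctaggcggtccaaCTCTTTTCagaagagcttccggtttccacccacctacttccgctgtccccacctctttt
Rpl23 (chr11:97782410-97782489, minus strand): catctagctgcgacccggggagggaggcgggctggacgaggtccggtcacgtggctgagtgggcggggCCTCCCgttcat
Rpl4 (chr9:64173337-64173416, plus strand): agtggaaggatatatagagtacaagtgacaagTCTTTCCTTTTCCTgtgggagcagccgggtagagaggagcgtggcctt
Rplp0 (chr5:115559417-115559496, plus strand): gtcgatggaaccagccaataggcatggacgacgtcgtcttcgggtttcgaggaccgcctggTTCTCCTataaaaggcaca
The first of these, Rpl38, has a run of 10 pyrimidines that crosses the annotated start used here, which for this gene lies inside the RefSeq gene span given further on and not at its end. Runs of at least 8 C or T stood in this window in 37 of the 57 members (64.9%), against 33.6% of 27025 genes with a promoter in the table. In the lines above, Rpl38, Rpl26, Rps25, Rps7 and Rpl4 have such a run and Rps21, Rpl23 and Rplp0 do not. Such a run thus stood in genes at both ends of the order of fold changes. Among these marked runs of at least 8, only that of Rpl38 crosses the annotated start. Those of Rpl26, Rps25, Rps7 and Rpl4 end before it. The counts are of runs anywhere in the window and are not counts of TOP motifs. CCGGAAG, the letters of an ETS or GABPA site, was found on either strand in 13 of 57 members (22.8%) and in 5.49% of all genes. ATGGCG, part of the YY1 motif, was found in 5 members (8.77%, against 3.48%), CACGTG, the Myc E-box, in 2 (3.51%, against 2.98%), both on either strand, and TATAAA on the transcribed strand in 3 (5.26%, against 3.72%). These are matches of letters in a fixed window and are not evidence of binding.

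Within the family, levels differed widely by gene. Mean CPM over the 10 libraries ran from 161 (Rps28) to 1088 (Rpl13a), with a median of 425. CPM grows with transcript length, so genes were also compared per length, as counts divided by the median length of the gene's coding transcripts and scaled to the same total in each library over the tested genes. On that scale 69 of the 77 lay within 2-fold of their median of 836. The highest were Rpl13a (3100, a protein of the GAIT complex in human cells), Rps14 (2225) and Rpl23a (1824), and the lowest were Rps20 (93.4), Rpl22 (139) and Rps13 (377). These extremes rest on the transcript models: the only coding model of Rps20 is 3706 bases long, and with the longest transcript of each gene the highest to lowest ratio was 20.7 in place of 33.2 and Rps15a, with a 5179-base model, was the lowest. Rpl23a was then the highest. The Spearman correlation of the levels between the 2 length choices was 0.55, so the order of members depends on that choice. The genes lie on 19 chromosomes, 14 of them on chromosome 7, 7 on chromosome 11 and 4 on X (Rpl10, Rpl36a, Rpl39 and Rps4x).

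Across the libraries the family moved almost as 1 unit. Its summed level was 32735, 55454 and 43689 CPM in AKP 1 to 3, against 33172, 26983 and 28896 CPM in NKP 1 to 3 and 36753, 36702, 32127 and 30105 CPM in Ptch 1 to 4. AKP 2 and AKP 3 stood above all other libraries, and AKP 1 lay inside the Ptch range. The group means were 43959 ± 11362 CPM in AKP, 29684 ± 3169 in NKP and 33922 ± 3343 in Ptch (SD, n = 3, 3 and 4). As a share of all counts the family took 3.10, 5.36 and 4.31% in AKP 1 to 3, 3.13, 2.66 and 2.94% in NKP 1 to 3, against 3.88, 3.86, 3.26 and 3.09% in Ptch 1 to 4. In bulk RNA, fewer cells of a type and less RNA per cell cannot be told apart.

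**Figure D1:**
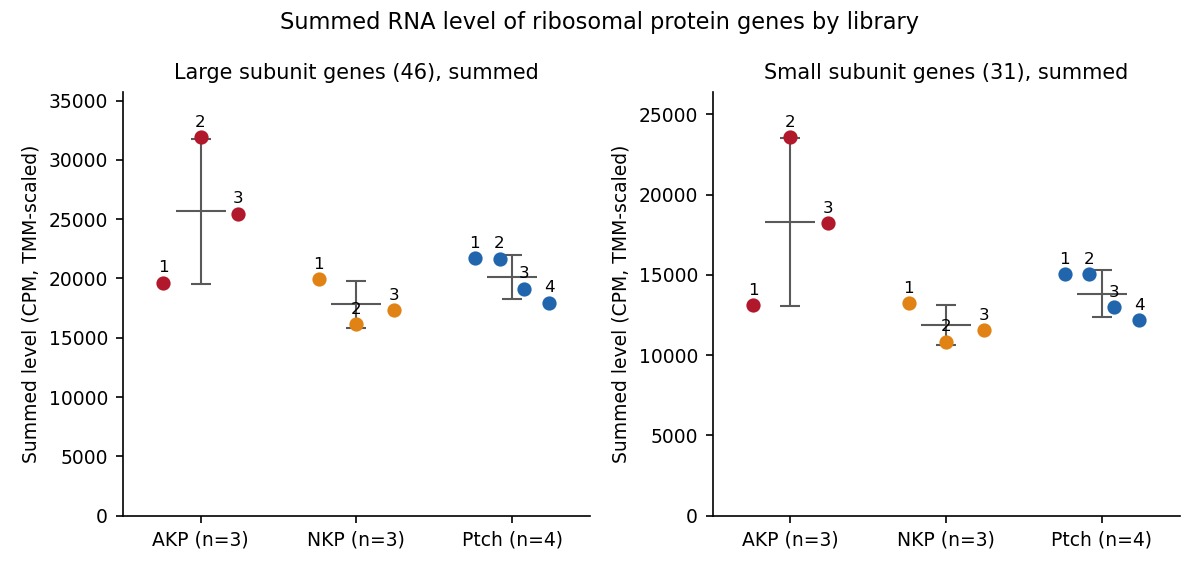
Summed level of the 46 large subunit genes (left) and the 31 small subunit genes (right), in CPM after TMM scaling, for each library (points, with the replicate number) with the group mean and SD (bars). AKP 2 and AKP 3 lie above all other libraries in both panels, while AKP 1 lies at the level of NKP 1.

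The large subunit genes summed to 19642, 31892 and 25466 CPM in AKP 1 to 3, against 19939, 16139.6 and 17332 CPM in NKP 1 to 3 and 21699, 21657, 19129 and 17937 CPM in Ptch 1 to 4. The small subunit genes summed to 13092, 23563 and 18223 CPM in AKP 1 to 3, against 13233, 10844 and 11564 CPM in NKP 1 to 3 and 15054, 15046, 12999 and 12169 CPM in Ptch 1 to 4. The ratio of the large to the small subunit sum was 1.50, 1.35 and 1.40 in AKP 1 to 3, 1.51, 1.49 and 1.50 in NKP 1 to 3, against 1.44, 1.44, 1.47 and 1.47 in Ptch 1 to 4. The libraries with the most ribosomal protein RNA, AKP 2 and AKP 3, thus had the lowest ratio.

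Single genes kept the same order of libraries. AKP 2 was the highest of the 10 libraries for all 77 genes, and AKP 2, AKP 3 and AKP 1 came in that order for all 77. AKP 3 was the second highest for 72, and Rplp0, Rpl4, Rps2 and Rpl29 were among the exceptions, in which it did not exceed all Ptch libraries. AKP 1 lay within the Ptch range for 52 genes, above it for 13 and below it for 12. For all 77 genes AKP 1 and NKP 1 were within 10% of each other, with ratios from 0.920 to 1.05, although they carry different Cre labels. The AKP 2 level was a median of 1.70 times that of AKP 1 (range 1.27 to 2.14), and the AKP 3 level 1.33 times (1.07 to 1.66). In the Ptch group, Ptch 1 and Ptch 2 both exceeded Ptch 3 and Ptch 4 for 72 genes, and for Rpl24, Rpl26, Rpl35a, Rpl38 and Rplp1 they did not. The lowest library was NKP 2 for 60 genes, NKP 3 for 16 and Ptch 4 for Rpl9.

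**Figure D2:**
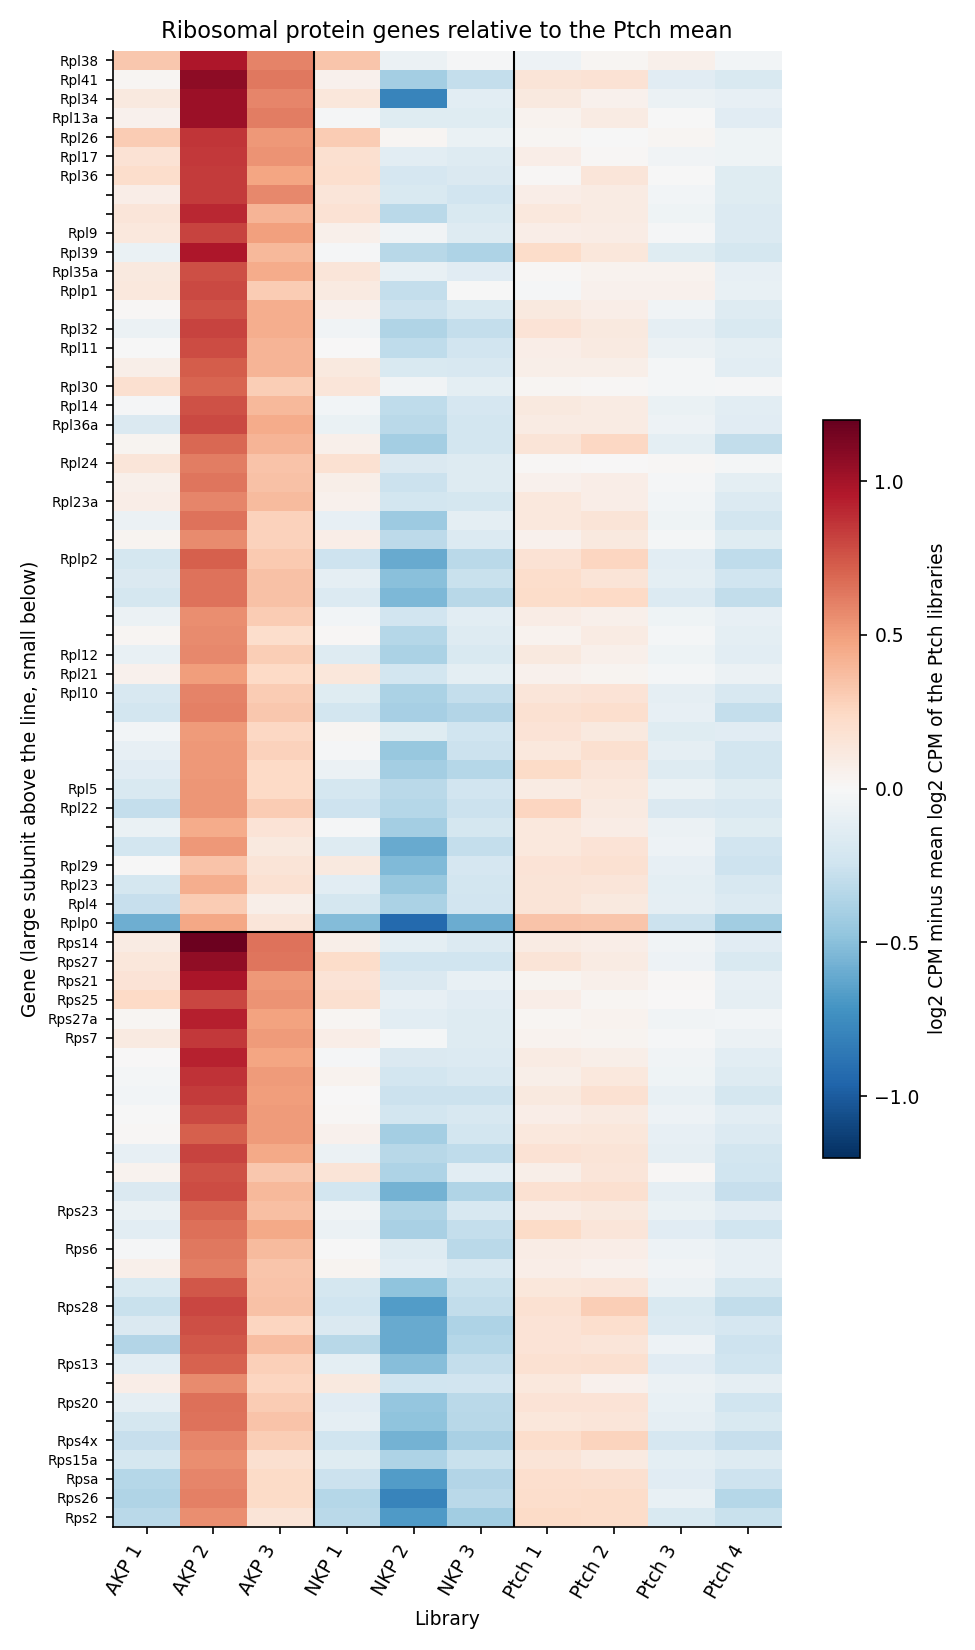
Log2 CPM of each of the 77 genes in each of the 10 libraries, minus the mean log2 CPM of the 4 Ptch libraries (red higher, blue lower). Genes are ordered within each subunit by the AKP against Ptch fold change. Genes named in the text carry their symbol. The AKP 2 column is the highest for all 77 genes, and the AKP 1 and NKP 1 columns are alike.

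As a description over the 10 libraries, which share their depth and cell mixture across all genes, the median Pearson correlation of log2 CPM over the 2926 pairs of members was 0.94, and 91.9% of the variance lay on the first principal component. The lowest pair stood at 0.43. With the mean of the other members, 71 genes correlated above 0.9. Those most like the rest were Rpl32 (0.998), Rps23 (0.997) and Rpl14 (0.996). The least alike were Rplp0 (0.837), Rpl26 (0.843) and Rpl38 (0.850). Rplp0 departed by its high level in Ptch 1 and Ptch 2, and Rpl26 and Rpl38 by flat levels over the 4 Ptch libraries.

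AKP against Ptch, the comparison of the libraries labelled Atoh1-Cre medulloblastoma with those labelled cerebellum, gave 7 ribosomal protein genes past the threshold, all higher in AKP. They are Rpl38, Rpl26, Rps25, Rpl17, Rps21, Rps7 and Rpl36, with log2 fold changes of 0.52 to 0.65, and none of the 77 was called lower. The 7 are 9.09% of the family, against 3.38% of the 15617 tested genes called higher and 2.3% called lower in this comparison. Members are short, and among other tested genes with a longest transcript under 1 kb 18.3% were called higher. All 77 fold changes were above 0, where 47.7% of the tested genes were, and their median was 0.36, against -0.019 over all tested genes. An unadjusted p below 0.05 with a rise was reached by 45 of the 77 (58.4%) and by 12.4% of all tested genes. By edgeR's quasi-likelihood test with Benjamini-Hochberg adjustment, at adjusted p below 0.05, the family therefore stood as a block of small positive differences of which few passed.

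The 7 genes code for proteins of both subunits. Rpl38 encodes a small protein of the large subunit whose loss alters translation of Hox mRNAs and body patterning in mice. It lies at chr11:114667818-114672333 and read 247, 386 and 298 CPM in AKP 1 to 3, 248, 188 and 195 CPM in NKP 1 to 3 and 189.9, 201, 207 and 193 CPM in Ptch 1 to 4. All 3 AKP libraries exceeded all 4 Ptch libraries, and NKP 1 was as high as AKP 1. The log2 fold change was 0.65 (adjusted p = 0.0258, SE 0.14), the smallest p in the family.

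Rpl26 (chr11:68901566-68904534), whose human product also binds p53 mRNA, read 637, 934 and 743 CPM in AKP 1 to 3, 638, 525 and 489.8 CPM in NKP 1 to 3 and 526, 516, 526 and 497 CPM in Ptch 1 to 4. The Ptch libraries differed little from each other, and AKP and Ptch did not overlap. Its log2 fold change was 0.58 (adjusted p = 0.0279, SE 0.13).

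Rps25 (chr9:44407714-44410406), which is needed for initiation at several viral internal ribosome entry sites, read 445, 657 and 547 CPM in AKP 1 to 3, 430.1, 352 and 343 CPM in NKP 1 to 3 and 397, 381, 378 and 349.8 CPM in Ptch 1 to 4. AKP libraries exceeded all libraries of the other groups, and the log2 fold change against Ptch was 0.55 (adjusted p = 0.0321, SE 0.13).

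Rpl17 (chr18:74998978-75003381), which lies near the exit of the peptide tunnel, read 522, 835 and 673 CPM in AKP 1 to 3, 528, 425 and 417 CPM in NKP 1 to 3 and 489.8, 468, 451 and 447 CPM in Ptch 1 to 4. AKP and Ptch did not overlap, and the log2 fold change was 0.54 (adjusted p = 0.0423, SE 0.14). Rps21 (chr2:180257379-180258444), a small subunit protein, read 388, 681 and 496 CPM in AKP 1 to 3, 389, 307 and 325 CPM in NKP 1 to 3 and 353, 361, 349 and 322 CPM in Ptch 1 to 4. Here too the lowest AKP library exceeded the highest Ptch library, and the log2 fold change was 0.59 (adjusted p = 0.0459, SE 0.15).

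Rps7 (chr12:28630847-28635953), a small subunit protein that also binds MDM2, read 648, 1084 and 854 CPM in AKP 1 to 3, 632, 589.9 and 538 CPM in NKP 1 to 3 and 619.7, 614, 596 and 573 CPM in Ptch 1 to 4. AKP 1 exceeded the highest Ptch library by a small margin, and the log2 fold change was 0.52 (adjusted p = 0.047, SE 0.14). Rpl36 (chr17:56610094-56614246), a large subunit protein, read 234, 361 and 280.0 CPM in AKP 1 to 3, 232, 176 and 179 CPM in NKP 1 to 3 and 203, 222, 201 and 182 CPM in Ptch 1 to 4. AKP 1 and Ptch 2 were again close without overlapping, and the log2 fold change was 0.53 (adjusted p = 0.0477, SE 0.14).

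The 7 were not those with the 7 largest fold changes, and in each of them AKP 1, too, stood above all Ptch libraries. Rps14, a small subunit gene in the region deleted in human 5q- syndrome, had the largest fold change of the family and read 862, 1821 and 1267 CPM in AKP 1 to 3, 845, 739.8 and 720.2 CPM in NKP 1 to 3 and 864, 849.7, 781 and 732 CPM in Ptch 1 to 4. AKP 1 lay inside the Ptch range, and with a log2 fold change of 0.71 (adjusted p = 0.0518, SE 0.19) it missed the threshold. Rps27, which encodes a small subunit protein also called metallopanstimulin, read 300.1, 571 and 427 CPM in AKP 1 to 3, 319, 232 and 232 CPM in NKP 1 to 3 and 304, 293, 262 and 241 CPM in Ptch 1 to 4. Its log2 fold change of 0.65 (adjusted p = 0.0668, SE 0.19) did not pass, with AKP 1 again inside the Ptch range.

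At the other end stood Rplp0, Rpl4 and Rpl23. Rplp0, the base of the ribosomal stalk that recruits elongation factors, read 455, 939 and 756 CPM in AKP 1 to 3, 476, 356 and 451 CPM in NKP 1 to 3 and 864, 860.0, 569 and 512 CPM in Ptch 1 to 4. Its highest AKP library was only slightly above Ptch 1 and Ptch 2, and AKP 1 was below all Ptch libraries. The log2 fold change was 0.032 (adjusted p = 0.958, SE 0.26). Rpl4, a protein of the peptide tunnel, had a log2 fold change of 0.044 (adjusted p = 0.875, SE 0.13) and Rpl23, which can bind MDM2, one of 0.15 (adjusted p = 0.554, SE 0.15).

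**Figure D3:**
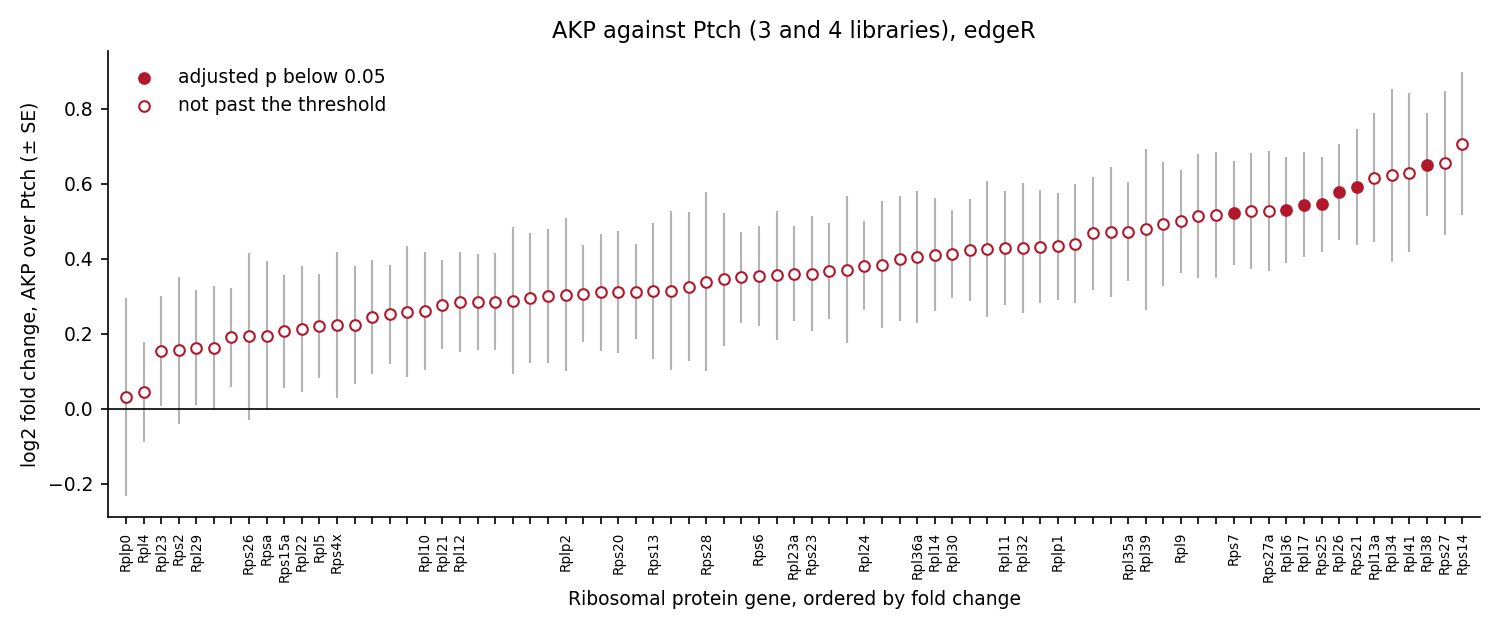
Log2 fold change of AKP over Ptch with its SE for each of the 77 genes, ordered by size, from edgeR, with symbols for genes named in the text. Filled points are the 7 genes with an adjusted p below 0.05; all 77 values lie above 0, from 0.032 for Rplp0 to 0.71 for Rps14.

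The calls rested on which libraries were compared. In all, 13 of the 77 genes (16.9%) had AKP libraries that did not overlap with Ptch in the upward direction, against 12.9% of all tested genes. Without AKP 1, 53 of the 77 passed (4.88% of tested genes were called higher there) and the median fold change was 0.54, while without AKP 2 none passed and the median was 0.17. None passed without AKP 3, without Ptch 1, Ptch 2 or Ptch 4, or without both Ptch 1 and Ptch 2, and only 1 did without Ptch 3, while 3 did without NKP 2. Calls over all tested genes fell in the same fits, and were 887 with all libraries, 1 without AKP 2, Ptch 1 or Ptch 2, 0 without AKP 3 or without both Ptch 1 and Ptch 2, 183 without Ptch 4, 321 without Ptch 3 and 553 without NKP 2. Outside the fit without AKP 2, the family median in these fits with lost calls stayed between 0.32 and 0.50. With the 4 libraries against their sex label left out no gene of any kind passed and the family median was 0.39, and with the sex label as a covariate none of the 77 and 231 genes in all passed, with a family median of 0.36. DESeq2 called 32, including the same 7, against 8.85% of the genes it tested called higher.

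Transcript length moved with these differences. Among the other tested genes, those with a longest transcript under 1 kb (716 genes) had a median log2 fold change of 0.37 in AKP against Ptch with 18.3% called higher, those of 1 to 2 kb 0.21 with 8.74%, those of 2 to 4 kb 0.010 with 2.28%, and those over 4 kb -0.17 with 0.459%. Ribosomal protein transcripts are short, with a median of 1094 bases against 3384 for the other tested genes. In the same classes the members had medians of 0.43 (33 genes, 5 called), 0.29 (31 genes, 2 called), 0.31 (11 genes, none called) and 0.34 (2 genes, none called). By median, the 33 shortest members thus differed little from other short genes, whereas the 11 of 2 to 4 kb lay above their class. By the share called higher, members did not exceed the other genes of their length class. The deviation of each gene's log2 level from its mean over the 10 libraries was also set against log2 length. Its slope per doubling was -0.071, -0.16 and -0.086 in AKP 1 to 3 and -0.067, 0.062 and 0.075 in NKP 1 to 3. In Ptch 1 to 4 it was 0.053, 0.034, 0.071 and 0.090. The sign of a slope is thus relative to the other libraries. After correction of each library for trends with length and GC content the median of the 77 was 0.091, 56 of the 77 stayed above 0 and none passed. Over all tested genes 47.2% were then above 0, with a median of -0.016, and 16 were called in place of 887.

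**Figure D4:**
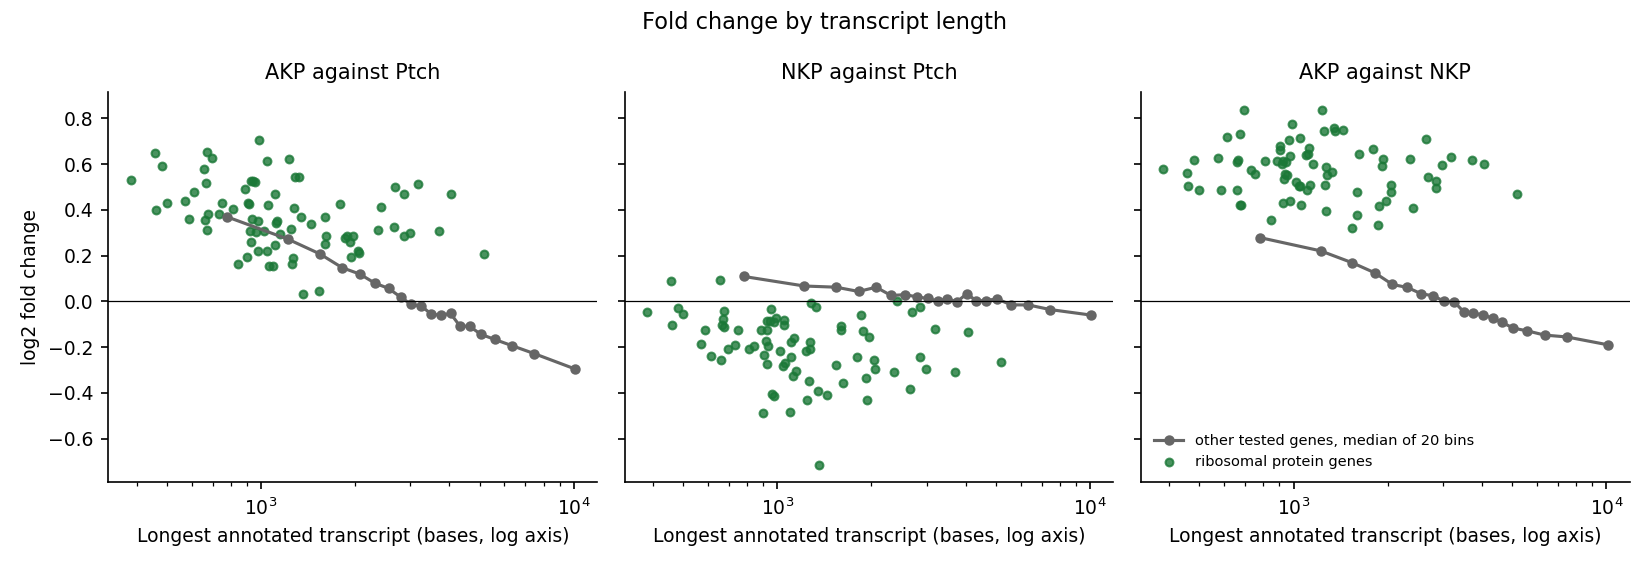
Log2 fold change against the longest annotated transcript (bases, log axis) for the 77 ribosomal protein genes (green) and for other tested genes as medians of 20 bins of equal size (grey), in the 3 comparisons. Most members lie near or above the curve of other genes in AKP against Ptch, below it in NKP against Ptch and above it in AKP against NKP.

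NKP against Ptch, the comparison of the libraries labelled Nestin-Cre medulloblastoma with those labelled cerebellum, gave no ribosomal protein gene past the threshold by edgeR, and no tested gene did (0% of 15617). An unadjusted p below 0.05 was reached by 2660 genes in all, and DESeq2 called 406 genes but none of the 77. Of the 77 fold changes 74 were below 0, where 47.7% of tested genes were, with a median of -0.19 against 0.014 over all tested genes. Only Rplp0 and Rps2 had an unadjusted p below 0.05 with a lower level in NKP (2.60% of the family, against 10.2% of tested genes). In 9 of the 77 (11.7%, against 8.95% of tested genes) all NKP libraries lay below all Ptch libraries. Rpl4, Rpl5, Rpl12, Rpl22, Rplp0, Rps2 and Rpsa were among them.

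Rplp0 had the lowest value, with a log2 fold change of -0.71 (adjusted p = 0.238, SE 0.27) and the library levels given above. Rps26, which sits at the mRNA exit of the small subunit, read 178, 346 and 266 CPM in AKP 1 to 3, 179.9, 131 and 182 CPM in NKP 1 to 3 and 263, 266, 213 and 179.8 CPM in Ptch 1 to 4. NKP 3 and Ptch 4 overlapped, and the log2 fold change was -0.49 (adjusted p = 0.305, SE 0.23). Rps2, near the mRNA entry, read 419.6, 775 and 587 CPM in AKP 1 to 3, 422, 329 and 394 CPM in NKP 1 to 3 and 619.5, 614, 463 and 437 CPM in Ptch 1 to 4, and although the groups did not overlap, its log2 fold change of -0.48 (adjusted p = 0.256, SE 0.20) did not pass.

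The members above 0 were Rpl26 at 0.093 (adjusted p = 0.739, SE 0.13), Rpl38 at 0.089 (adjusted p = 0.772, SE 0.14), and Rpl30, which in its human form also binds SECIS elements of selenoprotein mRNAs, at 0.0019 (adjusted p = 0.995, SE 0.12). NKP 1 was the highest NKP library for all 3 genes, and without it their values were -0.026, -0.046 and -0.077. Restricting the comparison to the 4-month libraries, which keeps NKP 1 to 3 with Ptch 1 and Ptch 2, brought 30 of the 77 past the threshold as lower, in a fit that called 2575 genes in all and 9.27% of tested genes lower. The median of the 77 was -0.30 there, against -0.064 without Ptch 1 and Ptch 2 and -0.11 without NKP 2. Age and the Ptch libraries high in mitosis genes cannot be told apart here, since Ptch 1 and Ptch 2 are the only 4-month Ptch libraries. After the length and GC correction the median was -0.23 and 2 of the 77 stayed above 0.

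AKP against NKP, the comparison of the Cre lines, gave the largest differences but no call. All 77 genes had a fold change above 0, where 48.5% of tested genes did, with a median of 0.58 against -0.010 over all tested genes. By edgeR no member passed the adjusted threshold, as 1 of 15617 tested genes did (0.0064%, lower in AKP), and the smallest adjusted p in the family was 0.228. An unadjusted p below 0.05 with a rise was reached by 76 of the 77 (98.7%), against 8.82% of tested genes, and DESeq2 called 50, against 1.84% of the genes it tested. In 21 of the 77 (27.3%, against 6.69% of tested genes) the AKP libraries all exceeded the NKP libraries. The margin of AKP 1 over NKP 1 was small there, since their ratio was at most 1.05 in any member. Rps19, for example, read 320.5 CPM in AKP 1 and 320.3 CPM in NKP 1.

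Rpl41, which encodes the smallest protein of the ribosome, read 286, 589.7 and 436 CPM in AKP 1 to 3, 292, 212 and 230.1 CPM in NKP 1 to 3 and 312, 317, 255 and 247 CPM in Ptch 1 to 4. AKP 1 fell just below NKP 1, and the log2 fold change of AKP over NKP was 0.84 (adjusted p = 0.228, SE 0.23). Rpl34, a large subunit protein, read 312, 587 and 433 CPM in AKP 1 to 3, 316, 166 and 263 CPM in NKP 1 to 3 and 313, 298, 274 and 268 CPM in Ptch 1 to 4, with NKP 2 far below the other libraries and a log2 fold change of 0.84 (adjusted p = 0.228, SE 0.25). For Rps14 the log2 fold change was 0.78 (adjusted p = 0.228, SE 0.21), and for Rps25, which had the smallest p, 0.55 (adjusted p = 0.228, SE 0.14).

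The smallest differences were those of Rpl4 at 0.32 (adjusted p = 0.283, SE 0.14), Rpl21 at 0.34 (adjusted p = 0.244, SE 0.13) and Rpl29 at 0.35 (adjusted p = 0.298, SE 0.16), all large subunit genes. Without AKP 1, 76 of the 77 passed, in a fit that called 4.38% of tested genes higher and 1364 in all, and the median was 0.73. Without AKP 2 none passed and the median was 0.37. In the 4-month libraries, where AKP 3 is the only AKP library, 36 passed among 419 in all, with 1.92% of tested genes called higher. There the spread comes from NKP and Ptch alone, AKP 3 is assumed to vary like them, and AKP 3 is one of the libraries against their sex label. The length and GC correction left a median of 0.33 with 77 of 77 above 0, and among other genes under 1 kb the uncorrected median was 0.28, against 0.60 for members of that length. Both NKP and AKP are compared with the same 4 Ptch libraries above, so those comparisons are not independent of each other.

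Some members with known roles outside the plain ribosome were read whatever their change. Of the acidic stalk proteins that partner Rplp0, Rplp1 read 413, 655 and 467 CPM in AKP 1 to 3, 408, 311 and 377 CPM in NKP 1 to 3 and 376, 393, 391 and 355 CPM in Ptch 1 to 4. AKP libraries exceeded all others, with a log2 fold change against Ptch of 0.43 (adjusted p = 0.0828, SE 0.14), short of the threshold. Rplp2 read 211, 401 and 302 CPM in AKP 1 to 3, 205, 160.2 and 194 CPM in NKP 1 to 3 and 275, 292, 224 and 197 CPM in Ptch 1 to 4, and AKP 1 fell inside the Ptch range, with 0.30 (adjusted p = 0.39, SE 0.20).

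Rpl5 and Rpl11 form the 5S RNP that binds MDM2. Rpl5 read 477, 784 and 638 CPM in AKP 1 to 3, 468, 433 and 463 CPM in NKP 1 to 3 and 581, 589.9, 512 and 492 CPM in Ptch 1 to 4, with AKP 1 below all Ptch libraries and a log2 fold change of 0.22 (adjusted p = 0.353, SE 0.14). Rpl11 read 475, 819.6 and 631 CPM in AKP 1 to 3, 477, 385 and 407 CPM in NKP 1 to 3 and 502, 512, 455 and 439 CPM in Ptch 1 to 4, with 0.43 (adjusted p = 0.102, SE 0.15). The 2 genes had the same order of AKP libraries as the rest of the family.

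Rps6, the substrate of the S6 kinases downstream of mTORC1, read 237, 371 and 311 CPM in AKP 1 to 3, 239, 215 and 191 CPM in NKP 1 to 3 and 254, 252, 229 and 223 CPM in Ptch 1 to 4. AKP 1 was inside the Ptch range, and the log2 fold change was 0.35 (adjusted p = 0.118, SE 0.13). Rpsa, which is also known as the laminin receptor, read 728, 1392 and 1086 CPM in AKP 1 to 3, 776, 580.0 and 724 CPM in NKP 1 to 3 and 1062, 1055, 839 and 778 CPM in Ptch 1 to 4. AKP 1 was lower than all Ptch libraries and AKP 3 only just higher than Ptch 1, giving 0.19 (adjusted p = 0.586, SE 0.20).

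Rps27a, a ubiquitin fusion, read 565, 1068 and 779 CPM in AKP 1 to 3, 566, 511 and 501 CPM in NKP 1 to 3 and 567, 575, 543 and 546 CPM in Ptch 1 to 4 and gave 0.53 (adjusted p = 0.0672, SE 0.16) against Ptch. Rpl22, which is mutated in human leukaemias, read 164, 289 and 247 CPM in AKP 1 to 3, 168, 158 and 167 CPM in NKP 1 to 3 and 239, 215, 177 and 175 CPM in Ptch 1 to 4 and gave 0.21 (adjusted p = 0.468, SE 0.17). Neither separated AKP from Ptch, since AKP 1 was below the highest Ptch library in both. Of the X-linked members, Rpl10 gave 0.26 (adjusted p = 0.333, SE 0.16) and Rps4x 0.22 (adjusted p = 0.52, SE 0.20), within the range of the autosomal members.

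**Figure D5:**
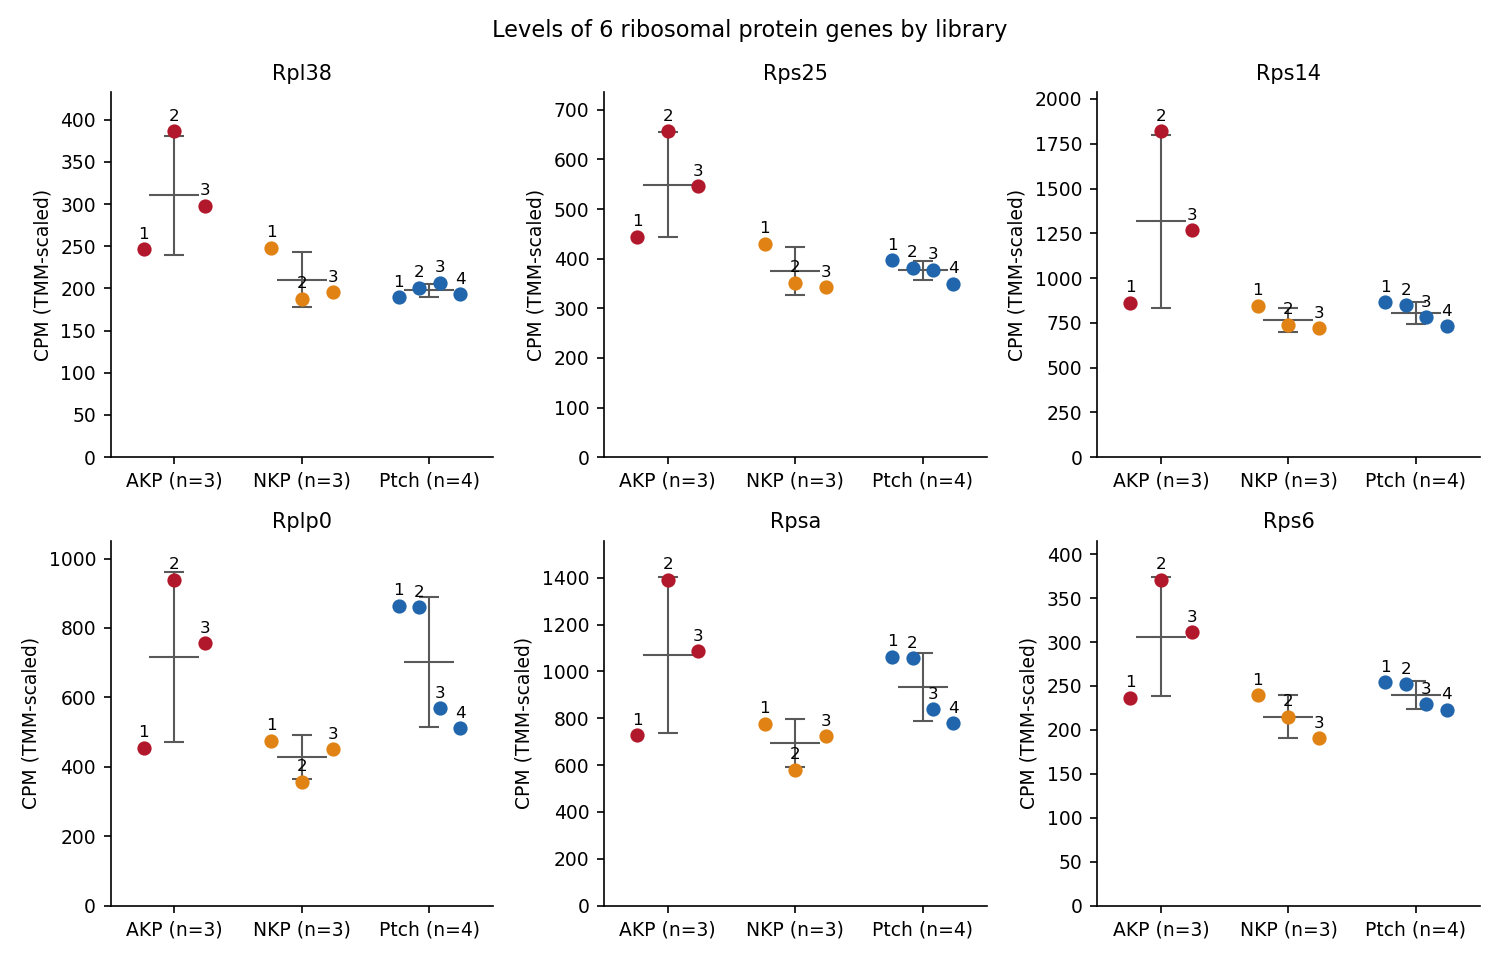
Level in CPM after TMM scaling of 6 ribosomal protein genes in each library (points, with the replicate number) with group mean and SD (bars). In Rpl38 and Rps25 all AKP libraries exceed all Ptch libraries, in Rps14 and Rps6 AKP 1 lies inside the Ptch range, and in Rplp0 and Rpsa AKP 1 lies below all Ptch libraries while Ptch 1 and Ptch 2 are high.

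Fau and Rack1, whose symbols lie outside the family, followed it in level without passing. Fau read 382, 618 and 465 CPM in AKP 1 to 3, 397, 290.3 and 313 CPM in NKP 1 to 3 and 347, 364, 334 and 313 CPM in Ptch 1 to 4, with a log2 fold change in AKP against Ptch of 0.52 (adjusted p = 0.0578, SE 0.15). Rack1 gave 0.24 (adjusted p = 0.447, SE 0.19). AKP libraries exceeded all Ptch libraries for Fau, and overlapped them for Rack1.

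Protein-coding paralogs of the family were tested for 5 of 9 listed genes, and 2 were higher in AKP than in Ptch. Rpl22l1, a paralog that is known to be regulated by Rpl22, read 176, 263 and 208 CPM in AKP 1 to 3, 163, 159.8 and 122 CPM in NKP 1 to 3 and 101, 122, 133 and 130.5 CPM in Ptch 1 to 4. AKP stood apart from Ptch, with a log2 fold change of 0.83 (adjusted p = 0.0209, SE 0.15), above any member of the family. Rpl36al, a copy of Rpl36a on another chromosome, gave 0.54 (adjusted p = 0.0231, SE 0.11), and Rps4l, a copy of Rps4x, gave 0.54 (adjusted p = 0.0518, SE 0.15). Close copies and processed pseudogenes share sequence with the members, and 13 rows of pseudogenes or retrocopies summed to 399 to 785 CPM per library, so reads divided by estimation among copies leave these values uncertain.

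Other lists of translation genes were read against the 3.38% of tested genes called higher and the 2.3% called lower in AKP against Ptch. Of 20 translation factors and other TOP mRNAs, 14 had a log2 fold change above 0 in AKP against Ptch and 6 below. Among all tested genes 47.7% were above 0. The list median was 0.19, and 1 gene of the list was called higher and none lower. The 1 called was Eif3k, a subunit of initiation factor 3, at 0.40 (adjusted p = 0.0397, SE 0.10). Tpt1, a TOP mRNA, gave 0.46 (adjusted p = 0.0774, SE 0.15), and Gas5, a TOP host gene of small nucleolar RNAs, 0.33 (adjusted p = 0.0818, SE 0.11). Of 24 other initiation factors, 1 was higher and 2 were lower. Eif3m gave 0.38 (adjusted p = 0.0365, SE 0.09), Eif3a -0.36 (adjusted p = 0.0397, SE 0.09) and Eif4g1, the scaffold of the cap-binding complex, -0.30 (adjusted p = 0.0497, SE 0.08).

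Of 30 genes of ribosome assembly and RNA polymerase I, 1 was higher (Polr1d, a subunit shared by RNA polymerases I and III, at 0.42 (adjusted p = 0.0335, SE 0.10)) and none was lower. The median of this list was -0.054, against 0.36 for the ribosomal protein genes and -0.019 over all tested genes. Fold changes moved with transcript length in this comparison, and the lists were not matched for length. Nop58, a box C/D snoRNP protein, gave -0.60 (adjusted p = 0.0613, SE 0.18). Of 18 mTORC1 and Myc genes, 1 was lower (Tsc2, an inhibitor of mTORC1, at -0.37 (adjusted p = 0.0335, SE 0.09)) and none higher. Activators and inhibitors are mixed in this list. Of the 18, 16 lay below 0, where 52.3% of tested genes did, and the list median was -0.22. Other tested genes with a longest transcript over 4 kb had a median of -0.17, and this list was not matched for length. Rheb, the GTPase that activates mTORC1, gave 0.35 (adjusted p = 0.0518, SE 0.10) and Tsc1, the partner of Tsc2, -0.39 (adjusted p = 0.0649, SE 0.12). None of 8 genes of the 5S RNP and p53 response passed, the smallest p being that of Mdm4, a p53 inhibitor, at -0.36 (adjusted p = 0.0974, SE 0.13).

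No gene of these lists passed in NKP against Ptch or in AKP against NKP by edgeR. The lowest p in NKP against Ptch among assembly genes was that of Nop58, at -0.80 (adjusted p = 0.218, SE 0.18), and among TOP mRNAs that of Pabpc1, the poly(A) binding protein, at -0.67 (adjusted p = 0.218, SE 0.18). The median of the assembly list was -0.21 in NKP against Ptch and 0.13 in AKP against NKP, and that of the TOP list -0.17 and 0.35.

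Markers of cell types were read beside the family, since their levels also differed between libraries. Summed microglial markers (8 genes) stood at 221, 411 and 339 CPM in AKP 1 to 3, at 218, 216 and 219.8 in NKP 1 to 3 and at 315, 301, 252 and 244 in Ptch 1 to 4, an order close to that of the ribosomal protein sum. Summed Purkinje markers were lowest in AKP 2, where the ribosomal protein sum was highest. They stood at 6131, 3408 and 3931 CPM in AKP 1 to 3 and at 6006, 6116 and 4720 in NKP 1 to 3. In Ptch 1 to 4 the Purkinje sums were 3781, 3782, 5119 and 4617 CPM. Mature granule markers were likewise lowest in AKP 2 (2419 CPM) and highest in NKP 1 (4293) and AKP 1 (4263). Summed brainstem neuron markers, of which 4 of 6 were tested, stood at 24.9, 97.5 and 78.1 in AKP 1 to 3, at 25.5, 23.8 and 33.3 in NKP 1 to 3 and at 44.1, 39.0, 44.2 and 38.9 in Ptch 1 to 4. Red blood cell markers ran from 1740 to 2232 CPM in AKP, from 780.1 to 2483 in NKP and from 710.0 to 814 in Ptch, with 3 of 5 called higher in AKP against Ptch. Oligodendrocyte markers ran from 8566 to 10712, from 7383 to 11889 and from 5844 to 7184 CPM in the same order of groups, with 1 of 6 called, and endothelial markers had 1 of 6 called higher. Of the microglial, mitosis, brainstem, granule precursor, mature granule, Purkinje, astrocyte, choroid plexus and meningeal markers none passed in that comparison. Mitochondrially encoded RNA, which varies with RNA quality and cell type, summed to 108666 to 137382 CPM in AKP, 108031 to 133315 in NKP and 70634 to 108258 in Ptch, where Ptch 1 and Ptch 2 were the lowest. The part of these markers and of mitochondrial RNA in the levels of the ribosomal protein genes was not tested.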

How the data were processed

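Libraries were made with an unstranded TruSeq v2 poly-A kit, per the labels' protocols. Trim Galore, STAR, RSEM and GRCm38 are named in the submitters' processing notes, with versions and annotation not given in the sources used here. Values in the deposited table are whole numbers, read as RSEM expected counts rounded by the authors, and were used as they stand. Among near-identical genes RSEM shares reads out by estimation.

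Genes were kept by filterByExpr (15617 of 39769), scaled by TMM and compared by the quasi-likelihood test of edgeR 4.0.16 in R 4.3.3, with robust dispersion and with 1 fit of 10 libraries by group alone. The threshold was an adjusted p of 0.05 (Benjamini-Hochberg). CPM are on the TMM scale. The SE is the size of the log2 fold change divided by the square root of F. Since separate animals are not stated, p-values cover only the variation among the libraries, which may be technical. Library totals of 12300430 to 19348991 counts set the counting precision. The fit was also run on simulated counts, drawn for each gene separately and without length trends or a shared shift of the family. That run does not bear on how far the calls depend on single libraries.

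The length and GC correction used lowess trends (span 0.3) on the longest GENCODE M21 transcript, available for 95.6% of tested genes, as offsets. Gene positions and promoters are from RefSeq, GRCm38.p6, in which all 77 symbols matched a gene. DESeq2 1.42.0, other scalings and filters, covariates, subsets of libraries, a replicate block and leaving out each library were alternatives. Leaving out Ptch 1 with Ptch 2, and the 4 libraries against their sex label with NKP 2, were chosen after seeing the data. The members and gene lists were chosen with earlier results of these data known. The genes named were a fixed set of 12 with known roles, the 3 highest and 3 lowest fold changes and the smallest p of each comparison, the extremes of level per length and of likeness, and up to 3 genes with the smallest p of other lists. The remaining genes past the threshold and exceptions to a count were named after their values were seen. A few genes are not reported here by name.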

Additional observations from a re-analysis of the deposited data

How the results depend on the processing

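In AKP against Ptch, where 7 ribosomal protein genes were called, the number called was 12 with upper quartile scaling, 32 with DESeq2, 11 without a filter on low counts, 12 with a filter at a mean of 5 CPM and 4 with age as a covariate. It was 0 with the sex label as a covariate, in the 2-month libraries alone, with the length and GC correction, without the 4 sex-discordant libraries, without these and NKP 2, and without Ptch 1 and Ptch 2. With each library left out in turn it ran from 0 to 53. Over all genes the 887 calls became 1940 with DESeq2, 231 with the sex covariate, 16 with the length and GC correction, 0 in the 2-month libraries and in the 3 sets without several libraries, and 0 to 1459 with each library left out. The median log2 fold change of 0.36 was 0.091 after the length and GC correction.

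In NKP against Ptch, the 4-month libraries alone gave 30 members called lower in place of 0. Over all genes the 0 calls became 406 with DESeq2, 933 with age as a covariate and 2575 in the 4-month libraries. The median of -0.19 turned to 0.018 when the sex-discordant libraries and NKP 2 were dropped, where NKP 1 is the only NKP library. In AKP against NKP, the 0 members called became 50 with DESeq2, 36 in the 4-month libraries and 0 to 76 with each library left out, and the 1 gene called in all became 230 with DESeq2, 419 in the 4-month libraries and 0 to 1364 with each library left out. It was 0 when only the groups compared were fitted, with the sex or age covariate, and in the 3 sets without several libraries. The median of 0.58 was 0.33 after the length and GC correction. The causes of these changes were not tested. Fits with some libraries left out also had fewer libraries, and the part of that was not tested either.

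Among named members in AKP against Ptch, the sign turned after the length and GC correction for Rpl10 (-0.12), Rpl23 (-0.18), Rpl4 (-0.17), Rplp0 (-0.19), Rplp1 (-0.010), Rplp2 (-0.0079) and Rps4x (-0.12). With each library left out, Rpl23 ran from -0.0051 to 0.31, Rpl4 from -0.10 to 0.18, Rplp0 from -0.21 to 0.27 and Rpsa from -0.040 to 0.41. In NKP against Ptch, leaving out each library gave -0.026 to 0.17 for Rpl26, -0.077 to 0.059 for Rpl30, -0.046 to 0.17 for Rpl38 and -0.14 to 0.050 for Rplp1. With the sex-discordant libraries and NKP 2 dropped, Rpl11 stood at 0.014, Rpl41 at 0.059, Rplp1 at 0.13, Rps27a at 0.022 and Rps6 at 0.018. Rpl30, at 0.0019 in the fit reported, was -0.017 with the sex covariate, -0.015 in the 4-month libraries and -0.14 after the length and GC correction.

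Same-numbered libraries of different groups had correlations of their deviations from -0.33 to 0.34, and differently numbered ones from -0.44 to 0.38. This shows no pairing by number, but with so few libraries it cannot exclude one. With the replicate number as a block, no member and no gene was called in any comparison (0 in AKP against Ptch, 0 in AKP against NKP), and the values of Rpl4, Rplp0 and Rpl30 (the last in NKP against Ptch) turned to -0.014, -0.10 and -0.0034. With the block and the length and GC correction together the counts were again 0, the median was 0.040 in AKP against Ptch and 0.33 in AKP against NKP, and the AKP against Ptch values were -0.17 for Rpl10, -0.24 for Rpl23, -0.22 for Rpl4, -0.033 for Rpl5, -0.32 for Rplp0, -0.0028 for Rplp1, -0.092 for Rplp2, -0.19 for Rps4x and -0.020 for Rpsa, with -0.17 for Rpl30 in NKP against Ptch.

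No comparison has more than 4 libraries in a group, and each member has a mean of at least 161 CPM. The family sum had an SD of 11362 CPM in AKP, where AKP 1 lay apart from AKP 2 and AKP 3. That SD was 3169 CPM in NKP and 3343 CPM in Ptch. The 3 groups share 1 estimate of the spread for each gene, and the part of each group in the errors was not tested.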
